A study of Rattus norvegicus with 24 samples.

Results

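The response of rat cardiac fibroblasts to high glucose was compared between cells of 20-month-old and of 10-13-week-old animals. The comparison used 12 of the 24 RNA sequencing libraries of the series, chosen by their age and glucose labels, with 3 libraries in each of 4 groups. The groups were 20 months in high glucose (33 mM), 20 months in normal glucose (5.5 mM), 10-13 weeks in high glucose (33 mM) and 10-13 weeks in normal glucose (5.5 mM). All 4 groups were primary cardiac fibroblasts grown in DMEM with fetal bovine serum and then kept for 24 hours at the stated glucose level, with no genetic change or other agent named. Strain, sex, passage number and an osmotic control are not among the labels. Nor do they say whether the 3 libraries of a group came from different animals or cultures, so the spread behind every p-value below may be technical. Without pairs, that is the spread between libraries of a group. In the fit with pairs, it is the spread of the high minus normal glucose differences among same-numbered pairs. The glucose effect is the log2 level in high glucose minus that in normal glucose, and the interaction is the glucose effect at 20 months minus that at 10-13 weeks.

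Cardiac fibroblasts build and remodel the collagen matrix of the heart. Like other cells they make cholesterol from acetyl-CoA through the mevalonate route, and fatty acids through fatty acid synthase. The genes of both routes are switched on together by the SREBP transcription factors, which sit in the endoplasmic reticulum while sterols are plentiful and are held there with the help of Insig proteins. SREBPs are known to work at many of these promoters beside NF-Y, a factor that binds CCAAT letters, and Sp1, a factor that binds GC-rich letters. Fasn and other lipid synthesis genes are also known targets of the glucose-sensing factor ChREBP in liver.

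Cholesterol and fatty acid synthesis supplied 9 of the 16 genes (0.116% of 13806 tested) called for a glucose response that differed between the ages. These calls came from a fit that paired same-numbered libraries, and the planned fit without pairs called 0. The promoters of 5 of the 9 synthesis genes are shown first. Each run holds 250 bases before and 50 bases after the annotated start, from RefSeq on the GRCr8 build, on the strand of the gene and 5′ to 3′. Capitals mark CCAAT or its reverse complement ATTGG. Hmgcs1 (chr2:53382054-53382353, plus strand), Mvd (chr19:67414925-67415224, minus strand), Idi1 (chr17:66547475-66547774, minus strand), Insig1 (chr4:8057720-8058019, minus strand) and Dhcr7 (chr1:208444184-208444483, plus strand) read as follows.
Hmgcs1: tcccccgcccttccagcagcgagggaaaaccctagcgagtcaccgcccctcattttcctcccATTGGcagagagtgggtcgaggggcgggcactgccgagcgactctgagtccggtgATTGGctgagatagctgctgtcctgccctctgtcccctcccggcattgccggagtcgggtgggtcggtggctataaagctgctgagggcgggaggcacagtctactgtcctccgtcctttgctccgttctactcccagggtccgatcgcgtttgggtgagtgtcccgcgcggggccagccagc
Mvd: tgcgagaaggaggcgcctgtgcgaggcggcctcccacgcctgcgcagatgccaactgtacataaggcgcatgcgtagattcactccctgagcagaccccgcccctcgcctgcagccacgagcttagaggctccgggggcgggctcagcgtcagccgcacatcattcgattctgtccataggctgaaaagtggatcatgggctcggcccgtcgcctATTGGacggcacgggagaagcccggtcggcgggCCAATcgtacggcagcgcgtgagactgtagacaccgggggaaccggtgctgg
Idi1: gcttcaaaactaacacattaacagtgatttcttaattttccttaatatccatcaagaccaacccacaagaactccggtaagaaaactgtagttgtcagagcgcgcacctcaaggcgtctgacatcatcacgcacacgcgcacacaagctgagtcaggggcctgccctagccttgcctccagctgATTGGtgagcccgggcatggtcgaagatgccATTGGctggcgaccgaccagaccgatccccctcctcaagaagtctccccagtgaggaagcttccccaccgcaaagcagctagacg
Insig1: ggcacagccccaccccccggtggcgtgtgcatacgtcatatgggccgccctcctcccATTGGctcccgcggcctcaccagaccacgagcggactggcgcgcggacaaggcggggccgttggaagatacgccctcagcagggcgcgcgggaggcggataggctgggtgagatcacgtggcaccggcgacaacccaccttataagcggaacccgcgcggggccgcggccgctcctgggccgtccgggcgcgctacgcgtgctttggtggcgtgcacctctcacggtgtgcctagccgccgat
Dhcr7: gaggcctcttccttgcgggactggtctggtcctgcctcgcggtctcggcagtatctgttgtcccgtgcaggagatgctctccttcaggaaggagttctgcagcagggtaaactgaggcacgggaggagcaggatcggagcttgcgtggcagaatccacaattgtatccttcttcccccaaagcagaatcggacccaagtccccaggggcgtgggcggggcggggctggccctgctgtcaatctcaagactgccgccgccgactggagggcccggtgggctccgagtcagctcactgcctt
Hmgcs1, Mvd and Idi1 each held 2 such matches and Insig1 held 1, whereas Dhcr7, the gene with the smallest interaction p-value, held 0. Cyp51, whose promoter is not shown, also held 0, and Nsdhl held 5; these 7 are the called synthesis genes with a promoter in the table. Of the 31 genes of the synthesis list, 20 matched a promoter in the RefSeq table. CCAAT on either strand was found in 16 of these 20 (80%), against 37.5% of all 33469 promoters of the same length. The GC-rich letters CCGCCC, searched on both strands, were also found in 16 of 20 (80%), against 33.1% of all promoters. CACGTG, a core of the E-box letters, was found in 2 of 20 (10%) against 6.42%, and the sterol element letters TCACNCCAC in 0 of 20 against 1.12%. These matches are descriptions of the letters in this window and not binding sites.

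The 12 libraries held between 18874548 and 24654286 gene counts. The age groups separated on the first principal component, which carried 59.2% of the variance. Fibroblast markers were abundant, with a summed level of 29120 to 54150 CPM (counts scaled to library size) in the 12 libraries, and 11 of 12 were detected (Col1a2 was listed at 0 throughout). Sums of lists and highest levels of markers are scaled by library totals alone. Levels of single genes per library or group are also TMM-scaled, so they differ slightly from the former. That sum was mostly the collagens Col1a1 (at most 31500 CPM) and Col3a1 (at most 16800 CPM). Endothelial markers summed to 518 to 787 CPM, mostly Eng, and macrophage and leukocyte markers to 93.0 to 237 CPM. Cardiomyocyte markers summed to 57.6 to 104 CPM, mostly Tnnt2 and Nppb and at 20 months also Actn2 (at most 10.1 CPM), while Myl2 and Myl7 had 0 counts and Myh6 and Myh7 at most 0.102 CPM. In bulk RNA, fewer cells of a type and less RNA per cell cannot be told apart. At 10-13 weeks the summed fibroblast markers were 42870 to 49430 CPM in high glucose and 49820 to 54150 CPM in normal glucose, which do not overlap, and the summed epicardial and mesothelial markers were 93.8 to 107 CPM in high glucose and 121 to 148 CPM in normal glucose. The fibroblast sum mainly reflects the collagens: the 11 fibroblast markers tested had median log2 differences of only -0.01, -0.07 and -0.05 in the 10-13-week pairs. At 20 months the fibroblast sums were 29120 to 34240 CPM in high glucose and 33270 to 36520 CPM in normal glucose, and the epicardial sums were 116 to 197 CPM in high glucose and 120 to 229 CPM in normal glucose. Those ranges overlapped, yet both sums were lower in high glucose in 3 of 3 pairs, as at 10-13 weeks. The part of these shifts in the results was not tested.

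The gene group that stood out, among lists chosen with earlier results of these data known, was cholesterol and fatty acid synthesis. At 20 months 10 of the 31 synthesis genes rose and 0 fell, whereas at 10-13 weeks 0 rose and 11 fell. For 9 of the 31 the interaction itself passed the test, in each case with a higher glucose effect at 20 months. Over all 13806 genes tested, 16 genes passed for the interaction (0.116%), 14 with a higher effect at 20 months (0.101%) and 2 with a lower effect (0.0145%). These counts come from an edgeR quasi-likelihood fit in which same-numbered libraries of an age were treated as pairs, at a Benjamini-Hochberg adjusted p under 0.05. Fitted without pairs, the design planned for the test, edgeR called 0 genes for the interaction (0%), with 247 genes at an unadjusted p under 0.05, and DESeq2 and limma-voom without pairs also called 0. All calls below are therefore calls of the paired fit, and they assume that same-numbered libraries belong together, a pairing for which the labels give no reason and the data a correlation.

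Dhcr7, the reductase that ends a route to cholesterol, had 42.1, 63.3 and 50.3 CPM in high glucose and 36.0, 48.7 and 47.1 CPM in normal glucose at 20 months. At 10-13 weeks it had 52.6, 59.3 and 53.2 CPM in high glucose and 73.5, 76.6 and 70.5 CPM in normal glucose. Within pairs it was higher in high glucose in 3 of 3 at 20 months and lower in 3 of 3 at 10-13 weeks, and the pair differences of the ages did not overlap. The interaction was 0.65 ± 0.09 (log2, SE, 3 pairs at each age; adjusted p = 0.00681), with a 95% interval of 0.47 to 0.84. Its fall at 10-13 weeks passed the test (-0.42 ± 0.06, adjusted p = 0.00107), while the effect of 0.23 ± 0.06 at 20 months did not (adjusted p = 0.087). Dhcr7 lies at chr1:217018916-217034904 on Rnor_6.0, the build of the deposited table.

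**Figure D1:**
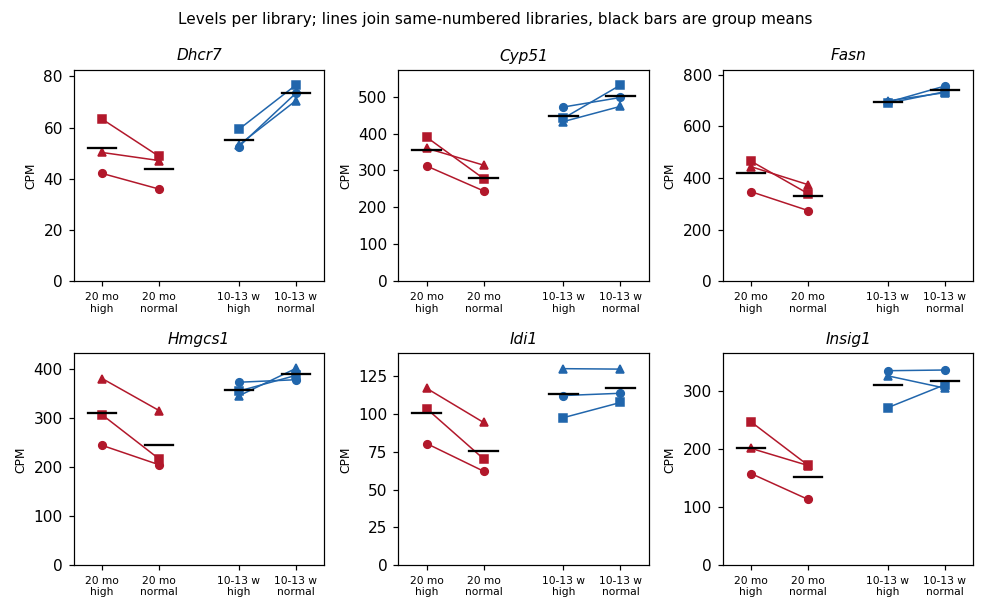
CPM (linear axis starting at 0) of 6 synthesis genes in each of the 12 libraries, with lines joining same-numbered libraries, a marker shape for each number and black bars for group means of 3 libraries. At 20 months every line is higher in high glucose for all 6 genes shown, whereas at 10-13 weeks Dhcr7, Cyp51, Fasn and Hmgcs1 are lower in high glucose in every pair.

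Hmgcs1, which makes HMG-CoA near the head of the mevalonate route, had 244, 307 and 381 CPM in high glucose and 205, 217 and 315 CPM in normal glucose at 20 months, against 373, 355 and 346 CPM in high glucose and 378, 387 and 402 CPM in normal glucose at 10-13 weeks. The high and normal ranges overlapped at 20 months, but all 3 pairs were higher in high glucose, and it rose by 0.34 ± 0.06 (adjusted p = 0.0102). Its interaction was 0.46 ± 0.08 (adjusted p = 0.0321).

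Mvd and Idi1, the decarboxylase and the isomerase that make and rearrange the isoprene unit, both rose at 20 months. Mvd averaged 71.1 ± 11.4 CPM in high glucose and 54.9 ± 11.5 CPM in normal glucose at 20 months (SD, n = 3 each, as for all CPM means below), and 74.8 ± 5.52 CPM in high glucose and 85.3 ± 8.50 CPM in normal glucose at 10-13 weeks, an interaction of 0.57 ± 0.10 (adjusted p = 0.0247). Idi1 averaged 100.4 ± 18.5 CPM in high glucose and 75.6 ± 16.8 CPM in normal glucose at 20 months, and 113 ± 16.2 CPM in high glucose and 117 ± 11.4 CPM in normal glucose at 10-13 weeks. Its rise at 20 months was 0.41 ± 0.06 (adjusted p = 0.00186) and its interaction 0.47 ± 0.08 (adjusted p = 0.0236). Idi1 overlaps Wdr37 in the deposited table, and strand use in counting is not given in the sources used here, so reads of the 2 genes may be mixed.

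Later steps toward cholesterol were called too. Cyp51, the lanosterol demethylase, had 312, 390 and 360 CPM in high glucose and 245, 278 and 314 CPM in normal glucose at 20 months, and 472, 441 and 432 CPM in high glucose and 498, 531 and 474 CPM in normal glucose at 10-13 weeks. It rose at 20 months (0.35 ± 0.05, adjusted p = 0.00529) with an interaction of 0.50 ± 0.08 (adjusted p = 0.0148), and its high glucose level at 20 months still lay below every 10-13-week library. Sqle, squalene epoxidase, rose at 20 months (0.28 ± 0.05, adjusted p = 0.0111) with an interaction of 0.38 ± 0.07 (adjusted p = 0.0416). Nsdhl, a sterol dehydrogenase, instead passed through its fall at 10-13 weeks (-0.26 ± 0.06, adjusted p = 0.0145), with an effect of 0.22 ± 0.06 at 20 months (adjusted p = 0.101) and an interaction of 0.48 ± 0.09 (adjusted p = 0.0335).

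Fasn, fatty acid synthase, had 347, 465 and 443 CPM in high glucose and 274, 339 and 374 CPM in normal glucose at 20 months. At 10-13 weeks its levels were 693, 689 and 698 CPM in high glucose and 756, 734 and 730 CPM in normal glucose, so no 20-month library reached a 10-13-week one. It rose at 20 months (0.35 ± 0.05, adjusted p = 0.00274), had an effect of -0.09 ± 0.05 at 10-13 weeks (adjusted p = 0.274), and its interaction was 0.44 ± 0.07 (adjusted p = 0.0225). Insig1, which holds SREBPs in the endoplasmic reticulum and is itself an SREBP target, rose at 20 months with 202 ± 44.6 CPM in high glucose and 152 ± 33.9 CPM in normal glucose (0.41 ± 0.06, adjusted p = 0.00413). At 10-13 weeks it averaged 311 ± 34.4 CPM in high glucose and 317 ± 16.6 CPM in normal glucose, and the interaction was 0.44 ± 0.09 (adjusted p = 0.0491).

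All 31 synthesis genes were tested and all 31 had an interaction above 0, which 49.2% of all genes tested had. Their interactions ran between 0.13 and 0.69 with a median of 0.39, beside a median of -0.00 over all genes. An unadjusted p under 0.05 with an interaction above 0 was found for 28 of the 31, against 3.95% of all genes, and for 6 of the 31 in the fit without pairs. The pair differences at 20 months all lay above those at 10-13 weeks for 26 of the 31, against 6.95% of all genes, and for 0 of 31 the order was reversed, against 7.87%. For 11 of 31 all pairs were up at 20 months and all down at 10-13 weeks, against 1.33% of all genes, and the opposite held for 0 of 31, against 1.61%. The median glucose effect of the list was 0.22 at 20 months, where 16 of 31 genes were up in every pair (17.9% of all genes were), and -0.18 at 10-13 weeks, where 24 of 31 were down in every pair (21.8% of all genes). Among all genes, 0.398% rose at 20 months, beside 10 of 31 in the list, and 3.48% fell at 10-13 weeks, beside 11 of 31. The list was chosen with earlier results of these data known, and its genes are not independent. All these counts describe the same pairs, so they are a description and not a test.

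The list varied less between pairs at 10-13 weeks than at 20 months. Its median pair difference was -0.22, -0.20 and -0.18 in the 3 pairs at 10-13 weeks, with 28, 30 and 26 of 31 genes below 0. At 20 months the medians were 0.24, 0.40 and 0.04, with 30, 31 and 17 of 31 genes above 0. Without the second pair of 20 months, the pair with the largest shift, 0 synthesis genes passed the interaction test, and without the third pair 19 did. Without pair 1 of 20 months 1 passed, and without pairs 1, 2 and 3 of 10-13 weeks in turn 2, 3 and 1 passed. Over all genes, the 16 interaction calls became 2, 1 and 25 without pairs 1, 2 and 3 of 20 months in turn, and 4, 9 and 1 without those of 10-13 weeks. All 16 genes called for the interaction kept their direction in each of these 6 fits, and the list median stayed between 0.32 and 0.49 in every alternative of the paired fit.

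**Figure D2:**
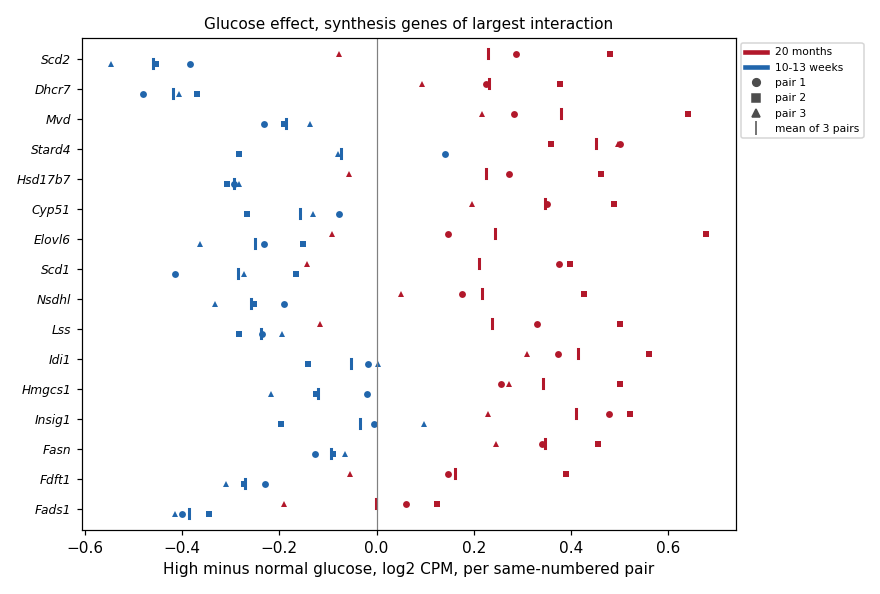
Difference between high and normal glucose (log2 CPM, horizontal axis) in each same-numbered pair for the 16 of 31 synthesis genes with the largest interaction, in that order, with 20 months in red above 10-13 weeks in blue and vertical ticks for the mean of 3 pairs. Red points lie right of blue points for all 16 genes shown, which largely follows from choosing them by their interaction. In the third 20-month pair (triangles) 9 of the 16 lie above 0.

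Different members of the list were called at the 2 ages, but genes were not tested against each other, and all 31 interactions lay above 0. The calls at 20 months included Hmgcs1, Mvd, Idi1, Sqle, Cyp51, Msmo1, Insig1, Fasn and Stard4, a sterol transport protein. Those at 10-13 weeks included Dhcr7, Nsdhl, Hsd17b7, Fdft1, Fdps, Pmvk, Srebf1, Fads1, Acaca and Scd2, and 0 of the 31 were called at both ages. Srebf1, which encodes an SREBP, fell at 10-13 weeks, with 97.1, 78.6 and 69.1 CPM in high glucose and 136, 99.3 and 81.7 CPM in normal glucose (-0.36 ± 0.06, adjusted p = 0.00166). It had 66.9, 66.3 and 59.8 CPM in high glucose and 65.8, 62.0 and 62.6 CPM in normal glucose at 20 months, an effect of 0.02 ± 0.06, and its interaction of 0.38 did not pass (adjusted p = 0.0925). Srebf1 overlaps Rai1 in the deposited table, so their reads may be mixed. Scd2, a fatty acid desaturase, had the largest interaction of the list (0.69, 95% interval 0.35 to 1.03) without passing (adjusted p = 0.195). Msmo1 rose at 20 months (0.33 ± 0.06, adjusted p = 0.0111) but was also higher in high glucose in 2 of 3 pairs at 10-13 weeks (0.18 ± 0.06, adjusted p = 0.0716), and its interaction was 0.16 (95% interval -0.02 to 0.33).

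In normal glucose 30 of the 31 genes had a lower mean at 20 months than at 10-13 weeks, and for 30 of 31 the gap between the ages was smaller in high glucose. The smaller gap largely follows from these lower means and the interactions above 0, so it is not a separate result. The summed level of the list was 4548 to 5780 CPM in high glucose and 3798 to 4911 CPM in normal glucose at 20 months. At 10-13 weeks the sums were 6555 to 7344 CPM in high glucose and 7541 to 8389 CPM in normal glucose. The sums of the glucose levels overlapped at 20 months and did not overlap at 10-13 weeks, and no 20-month library reached the lowest 10-13-week library. The members just outside the threshold were Fdft1 and Fdps, both at an adjusted p of 0.0506, with interactions of 0.43 and 0.35, while Insig1 stood just inside it. Acat2, which makes acetoacetyl-CoA at the start of the route and was not on the list, had an interaction of 0.60 at the same adjusted p of 0.0506 and was picked out after its value was seen.

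Of the 16 called genes, 7 were outside the synthesis list. Acsl3, an acyl-CoA synthetase that activates fatty acids, had 36.8, 48.6 and 35.5 CPM in high glucose and 31.5, 42.2 and 34.3 CPM in normal glucose at 20 months, and 64.2, 54.3 and 52.0 CPM in high glucose and 76.5, 67.0 and 65.9 CPM in normal glucose at 10-13 weeks. It fell at 10-13 weeks (-0.30 ± 0.06, adjusted p = 0.0042), had an effect of 0.16 ± 0.06 at 20 months (adjusted p = 0.245) and an interaction of 0.46 ± 0.08 (adjusted p = 0.0335). Its pair differences were above 0 in 3 of 3 pairs at 20 months and below 0 in 3 of 3 at 10-13 weeks, the pattern of Dhcr7.

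Adamts15, a secreted protease that cleaves proteoglycans such as versican, had the largest interaction among called genes with a mean log2 CPM of at least 1. At 20 months its levels were 2.76, 4.06 and 1.35 CPM in high glucose and 3.25, 3.34 and 1.99 CPM in normal glucose, and at 10-13 weeks 5.74, 5.23 and 3.74 CPM in high glucose and 16.6, 10.9 and 13.2 CPM in normal glucose. The groups overlapped at 20 months and stood far apart at 10-13 weeks, where the fall of -1.48 ± 0.14 had the smallest adjusted p of any gene (5.26e-05). The effect at 20 months was -0.09 ± 0.20 (adjusted p = 0.905), and the interaction was 1.39 ± 0.25 (95% interval 0.87 to 1.90, adjusted p = 0.0335).

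Agtr1a, the receptor through which angiotensin II acts on fibroblasts, also fell at 10-13 weeks, with 18.3, 8.07 and 21.6 CPM in high glucose and 28.3, 14.6 and 43.0 CPM in normal glucose (-0.83 ± 0.10, adjusted p = 0.000118). The high and normal ranges overlapped there, with the second pair low in both, while all 3 pairs were lower in high glucose. At 20 months it had 17.5, 23.3 and 12.9 CPM in high glucose and 17.2, 22.7 and 18.0 CPM in normal glucose (-0.13 ± 0.10, adjusted p = 0.611), and its interaction was 0.70 ± 0.14 (adjusted p = 0.0491). Ptprv, a receptor-type tyrosine phosphatase, had 13.7 ± 0.81 CPM in high glucose and 12.3 ± 1.42 CPM in normal glucose at 20 months, and 3.83 ± 0.67 CPM in high glucose and 6.58 ± 0.64 CPM in normal glucose at 10-13 weeks. It fell at 10-13 weeks (-0.78 ± 0.14, adjusted p = 0.00305) with an interaction of 0.93 ± 0.18 (adjusted p = 0.0491).

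Only Fchsd1 and Ehbp1l1 had a lower glucose effect at 20 months among the called genes. Fchsd1, an F-BAR and SH3 protein of the actin cytoskeleton, had 47.1, 33.2 and 46.2 CPM in high glucose and 57.3, 40.3 and 50.0 CPM in normal glucose at 20 months, and 55.1, 82.0 and 50.2 CPM in high glucose and 45.5, 67.2 and 32.6 CPM in normal glucose at 10-13 weeks. Every pair was lower in high glucose at 20 months and higher at 10-13 weeks, where it rose by 0.39 ± 0.07 (adjusted p = 0.00329), and its interaction was -0.62 ± 0.10 (adjusted p = 0.0236). Fchsd1 overlaps Rell2 in the deposited table, so its counts may hold reads of that gene. Ehbp1l1, a protein of endosome tubules, rose at 10-13 weeks with 288 ± 12.7 CPM in high glucose and 241 ± 3.69 CPM in normal glucose (0.26 ± 0.04, adjusted p = 0.00177). At 20 months it averaged 242 ± 24.6 CPM in high glucose and 253 ± 29.4 CPM in normal glucose, and its interaction was -0.32 ± 0.06 (adjusted p = 0.04).

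The last of the 16, a row named C2 for a complement component, is uncertain. It had 0.638, 0.355 and 0.0541 CPM in high glucose and 0.246, 0.191 and 0.173 CPM in normal glucose at 20 months, and 0.0542, 0 and 0.137 CPM in high glucose and 0.104, 0.161 and 1.67 CPM in normal glucose at 10-13 weeks. The third normal glucose library at 10-13 weeks was far above the rest, the pair differences of the ages overlapped, and the row shares its position with another C2 row and with Cfb and Nelfe. Its fitted interaction of 3.98 ± 0.77 (adjusted p = 0.0491) depends on counts near 0.

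**Figure D3:**
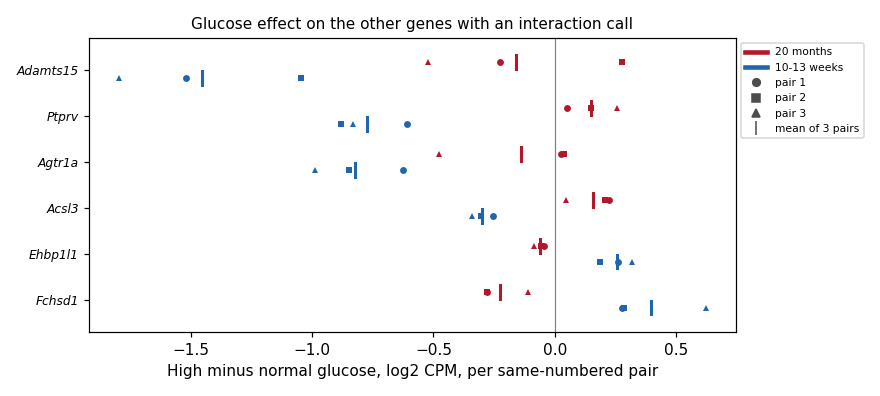
Difference between high and normal glucose (log2 CPM) in each same-numbered pair for the 6 called genes outside the synthesis list with a mean log2 CPM of at least 1, with 20 months in red above 10-13 weeks in blue. For each of the 6 the red and blue points do not overlap, and Adamts15, Ptprv and Agtr1a are lower in high glucose in every 10-13-week pair. The 6 were chosen by the interaction in these same pairs, so their separation largely follows from the choice. Among all genes, the 20-month pairs all lay higher for 6.95% and all lower for 7.87%.

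Call numbers over all genes depended on the pairs included. At 20 months 55 genes rose (0.398%) and 73 fell (0.529%), 128 of 13806 in all (0.927%). At 10-13 weeks 586 rose (4.24%) and 481 fell (3.48%), 1067 in all (7.73%). Scaled by library totals alone, the 10-13-week calls split into 394 higher and 672 lower. Without pairs 1, 2 and 3 of 10-13 weeks in turn the 1067 became 392, 709 and 151, and the last of these fits called 159 genes at 20 months, so that the order of the ages turned. Without pairs 1, 2 and 3 of 20 months in turn the 128 became 13, 73 and 21. Without pairs, edgeR called 0 genes at 20 months (453 at an unadjusted p under 0.05; DESeq2 and limma-voom 0) and 1 at 10-13 weeks (0.00724%), which fell: Smpd3, a sphingomyelinase (DESeq2 33, limma-voom 0).

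Smpd3 had 0.585, 0.660 and 0.865 CPM in high glucose and 1.38, 1.38 and 2.07 CPM in normal glucose at 20 months, and 0.108, 0.0545 and 0.137 CPM in high glucose and 1.45, 1.07 and 2.19 CPM in normal glucose at 10-13 weeks. It was lower in high glucose in every pair at both ages, though at very low counts, and it fell at 10-13 weeks (-3.90 ± 0.43, adjusted p = 8.06e-05). The effect was -1.19 ± 0.29 at 20 months (adjusted p = 0.0526) and the interaction 2.71 ± 0.57 (adjusted p = 0.0656).

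Part of the response was shared. Of the 128 calls at 20 months 67 were also called at 10-13 weeks (52.3% of the 20-month calls and 6.28% of the 10-13-week calls), 29 higher and 38 lower at both ages, with 0 in opposite directions. Among all genes 7.73% were called at 10-13 weeks. The 2 comparisons share no library, but they take the spread of each gene from the same fit. Over all 13806 genes the 2 effects correlated at a Pearson r of 0.165 and a Spearman rho of 0.341, given as a description because genes are not independent and share library depth. None of the 16 interaction genes was called at both ages, 7 being called at 20 months and the other 9 at 10-13 weeks.

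**Figure D4:**
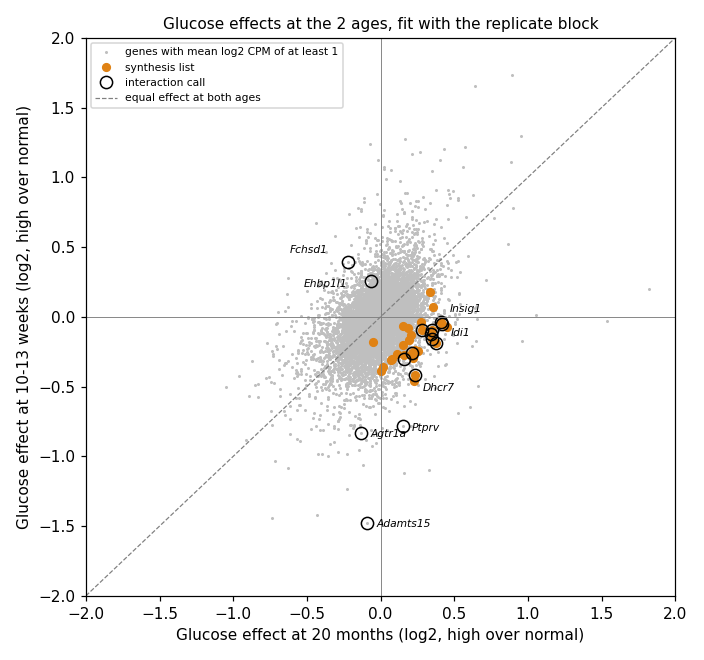
Glucose effect at 20 months (horizontal) against that at 10-13 weeks (vertical), log2 high over normal, paired fit, for 11313 genes with a mean log2 CPM of at least 1 (grey), the synthesis list (orange) and genes called for the interaction (circled). The dashed line marks equal effects, and all 31 synthesis genes lie below it, with a higher effect at 20 months.

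Transporters of organic osmolytes and amino acids were among the genes called at both ages. Slc38a2, a neutral amino acid transporter, rose at both ages, with 793, 957 and 682 CPM in high glucose and 596, 765 and 491 CPM in normal glucose at 20 months (0.40 ± 0.05, adjusted p = 0.00138). At 10-13 weeks it had 743, 776 and 745 CPM in high glucose and 567, 560 and 574 CPM in normal glucose (0.41 ± 0.05, adjusted p = 0.000194), and its interaction was -0.01 with a 95% interval of -0.16 to 0.14. Slc6a6, the taurine transporter, rose by 0.46 ± 0.08 at 20 months (adjusted p = 0.0132) and 0.39 ± 0.08 at 10-13 weeks (adjusted p = 0.011), with an interaction of 0.07 (95% interval -0.17 to 0.31). Slc6a12, the betaine transporter, rose by 1.77 ± 0.38 at 20 months (adjusted p = 0.0294) and 1.23 ± 0.25 at 10-13 weeks (adjusted p = 0.00608) at levels under 4 CPM, and its interval for the interaction was wide (-0.42 to 1.51). Of the 12 osmotic response genes tested, 3 rose at 20 months and 4 at 10-13 weeks, and 0 fell at either age, where 0.398% and 4.24% of all genes rose. High glucose also raises the osmolality of the medium, and with no osmotic control in the labels glucose and osmolality cannot be told apart.

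Cell cycle genes gave more lower than higher calls at both ages. Of 33 cell cycle genes 0 rose and 4 fell at 20 months, and 1 rose and 9 fell at 10-13 weeks, beside 0.529% of all genes that fell at 20 months and 4.24% that rose and 3.48% that fell at 10-13 weeks, with 0 called for the interaction (list median -0.04). Mcm6, a subunit of the replicative helicase, had 14.9, 32.8 and 18.9 CPM in high glucose and 20.9, 41.5 and 35.7 CPM in normal glucose at 20 months (-0.58 ± 0.08, adjusted p = 0.00249). At 10-13 weeks it had 79.4, 107 and 118 CPM in high glucose and 109, 133 and 160 CPM in normal glucose (-0.40 ± 0.07, adjusted p = 0.00191), lower in 3 of 3 pairs at each age. Gclc, the catalytic subunit of glutathione synthesis, rose at both ages, by 0.45 ± 0.07 at 20 months (adjusted p = 0.00949) and 0.40 ± 0.07 at 10-13 weeks (adjusted p = 0.00375), and its interaction was 0.05 (95% interval -0.16 to 0.27).

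Known glucose-induced genes gave no interaction call apart from Fasn. Txnip, a brake on glucose uptake that ChREBP and MondoA are known to induce, had 226, 186 and 246 CPM in high glucose and 241, 176 and 252 CPM in normal glucose at 20 months (-0.02 ± 0.07, adjusted p = 0.951). At 10-13 weeks it had 138, 165 and 131 CPM in high glucose and 110, 120 and 129 CPM in normal glucose and rose by 0.27 ± 0.07 (adjusted p = 0.0194), but the pair differences of the ages overlapped and the interaction of -0.29 did not pass (adjusted p = 0.402). Arrdc4, a related arrestin under the same control, rose at 10-13 weeks (0.49 ± 0.10, adjusted p = 0.00649), had an effect of 0.22 ± 0.10 at 20 months (adjusted p = 0.341) and an interaction of -0.27 (adjusted p = 0.627). Of the 19 genes of glucose-responsive transcription tested, Fasn was the only call for the interaction, and Fasn is also on the synthesis list.

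Most contractile genes of myofibroblasts had an interaction below 0, and 0 were called. The list median of the interaction was -0.18, and 16 of 18 genes lay below 0 (50.8% of all genes did). Smooth muscle and pericyte markers, a list that also holds contractile genes such as Acta2, had similar shifts, which are therefore not independent of those above. The 11 tested had a median interaction of -0.20, with pair medians of -0.19, -0.16 and -0.17 at 20 months and -0.03, -0.04 and -0.00 at 10-13 weeks. Their summed level was 8320 to 9690 CPM in high glucose and 9418 to 10320 CPM in normal glucose at 20 months, lower in 3 of 3 pairs, and 7795 to 9078 CPM in high glucose and 7932 to 8787 CPM in normal glucose at 10-13 weeks, and their part in the result was not tested. That sum was mostly Acta2 (at most 4890 CPM) and Tagln (at most 4220 CPM), whereas the pericyte markers Rgs5 and Kcnj8 reached at most 2.15 and 2.87 CPM. These maxima are scaled by library totals alone, unlike the TMM-scaled gene levels that follow. Vcl, vinculin of focal adhesions, had the smallest interaction p-value among them, with 954, 949 and 1612 CPM in high glucose and 1125, 1075 and 1653 CPM in normal glucose at 20 months, and 1089, 941 and 1071 CPM in high glucose and 836, 873 and 785 CPM in normal glucose at 10-13 weeks. It rose at 10-13 weeks (0.31 ± 0.08, adjusted p = 0.0257), was lower in 3 of 3 pairs at 20 months without passing (-0.15 ± 0.08, adjusted p = 0.426), and its interaction was -0.46 (adjusted p = 0.187). Tpm1, a tropomyosin, fell at 20 months (-0.23 ± 0.05, adjusted p = 0.0303), with an effect of 0.01 ± 0.05 at 10-13 weeks and an interaction of -0.24 (adjusted p = 0.3). Acta2, smooth muscle actin, averaged 4307 ± 280 CPM in high glucose and 4958 ± 222 CPM in normal glucose at 20 months, and 3108 ± 359 CPM in high glucose and 3142 ± 298 CPM in normal glucose at 10-13 weeks, with an interaction of -0.19 (adjusted p = 0.598). Smtn, smoothelin, rose by 0.24 ± 0.05 at both ages (adjusted p = 0.0294 at 20 months and 0.0081 at 10-13 weeks).

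Matrix genes gave no interaction call. The interaction of Col1a1 was 0.05 (95% interval -0.08 to 0.19), that of Col3a1 was 0.01 (-0.21 to 0.24), that of Postn was -0.01 (-0.13 to 0.12) and that of Fn1 was 0.09 (-0.07 to 0.25). The 16 collagens tested had a median interaction of 0.05, with 0 calls at 20 months and 1 lower call at 10-13 weeks, where 3.48% of all genes fell. Among the 26 TGF-beta pathway genes tested, 1 rose and 0 fell at 20 months (0.398% and 0.529% of all genes did), and 5 rose and 2 fell at 10-13 weeks (4.24% and 3.48% of all genes), with 0 called for the interaction. Ctgf, a matricellular target of TGF-beta, rose at 10-13 weeks with 6569 ± 420 CPM in high glucose and 5272 ± 256 CPM in normal glucose (0.32 ± 0.06, adjusted p = 0.0026). At 20 months it averaged 7762 ± 213 CPM in high glucose and 7406 ± 296 CPM in normal glucose, and the interaction was -0.25 (adjusted p = 0.385). Inhba, an activin subunit, rose at 10-13 weeks (0.81 ± 0.10, adjusted p = 0.00166), had an effect of 0.33 ± 0.10 at 20 months (adjusted p = 0.159) and an interaction of -0.48 (adjusted p = 0.402).

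Growth factors and cytokines gave 0 interaction calls. Of 35 growth factor and receptor genes 0 were called at 20 months, near the 0.927% of all genes, and 5 rose and 2 fell at 10-13 weeks, beside 4.24% and 3.48% of all genes, with a median interaction of -0.20. Hgf, a growth factor secreted by fibroblasts, had 21.9 ± 1.60 CPM in high glucose and 16.6 ± 0.29 CPM in normal glucose at 10-13 weeks, where it rose by 0.40 ± 0.09 (adjusted p = 0.0117). At 20 months it averaged 8.47 ± 2.18 CPM in high glucose and 9.39 ± 2.19 CPM in normal glucose, and its interaction was -0.55 (adjusted p = 0.187). Il11, a profibrotic cytokine, rose at 10-13 weeks (1.24 ± 0.29, adjusted p = 0.0188), where it had 4.60, 3.98 and 10.9 CPM in high glucose and 3.16, 2.78 and 1.82 CPM in normal glucose. The third pair stood apart there. The cytokine list had medians of 0.00, 0.07 and 0.87 and the immediate early list medians of -0.21, 0.14 and 1.13 in the 3 pairs of 10-13 weeks. In the third pair Egr1, an immediate early factor, had 316 CPM in high glucose and 103 CPM in normal glucose, whereas in the first it had 317 CPM in high glucose and 458 CPM in normal glucose.

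Interferon response genes had a median interaction of 0.13 and 0 interaction calls. Of 31 genes 0 were called at 20 months, near the 0.927% of all genes, and 3 fell at 10-13 weeks, beside 3.48% of all genes, among them Stat2, which carries interferon signals, and Ifi35. The list medians were -0.17, -0.21 and -0.19 in the 3 pairs at 10-13 weeks and 0.02, -0.09 and 0.06 at 20 months. Cdkn1a and Cdkn2a, inhibitors of cell division, had interactions of 0.18 (adjusted p = 0.71) and 0.11 (adjusted p = 0.886), and Tgfb1 of -0.24 (adjusted p = 0.754).

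**Figure D5:**
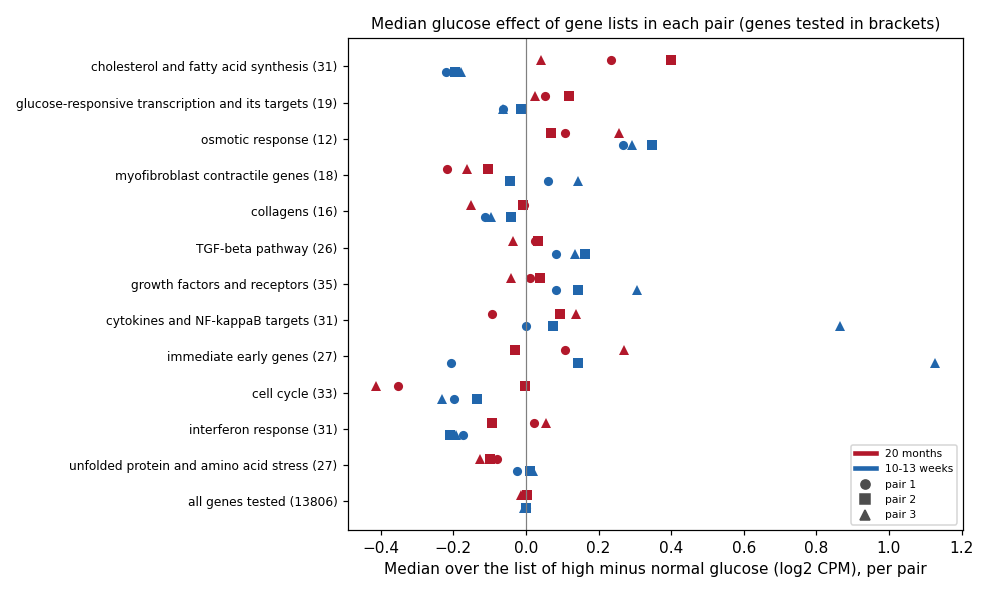
Median over each gene list of the difference between high and normal glucose (log2 CPM) in each pair, 20 months in red above 10-13 weeks in blue, with the number of genes tested in brackets. In the synthesis list the 20-month medians (0.04 to 0.40) all lie above 0 and the 10-13-week medians (-0.22 to -0.18) all lie below 0. The medians do so too, closer to 0, in the glucose-responsive list, which shares Fasn with the synthesis list. The third 10-13-week pair stands apart for cytokines and immediate early genes.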

How the data were processed

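RNA sequencing libraries were prepared from total RNA, per the labels' protocols. The deposited table lists, for each of 30957 genes, a whole-number count per library, not normalized by the authors, and an FPKM value per library that the authors deposited beside it and that entered no test. HISAT2 2.0.4, StringTie 1.3.0, edgeR and the build Rnor_6.0 are named in the submitters' processing notes. Roles of the tools, annotation release and strandedness are not given in the sources used here.

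Counts were fitted in R 4.3.3 with edgeR 4.0.16 (filterByExpr by group, minimum count 10, minimum total 15; TMM scaling; robust quasi-likelihood; all 24 libraries, which share the estimate of spread). This left 13806 genes. Libraries held 18874548 to 24654286 counts, and genes near the minimum count are the least precise. Adjusted p-values are edgeR's, Benjamini-Hochberg over all genes tested, two-sided; SE was taken as the size of the log2 change over the root of the F statistic. Pair differences are log2 CPM with a prior count of 2. Levels of single genes are CPM with TMM scaling, whereas list sums and highest marker levels are CPM by library totals alone.

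The planned fit had a mean per group and no pairs. Equal replicate numbers in the labels were then checked. After group means were removed, same-numbered libraries of an age correlated across genes at 0.368 to 0.494 and differently numbered ones at -0.281 to -0.121. Removing the means of 3 libraries forces the latter below 0 on average when the former are above 0, so they add no evidence. From the same-numbered values, the numbers were taken to pair the samples. A fit with them as blocks, separately for the 2 ages, is reported beside the planned fit. Alternatives with DESeq2 1.42.0 and limma 3.58.1 and other settings are given in the closing section. No 2 libraries of a group held identical values.

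Members and gene lists were chosen with earlier results of these data known, so lists get counts and medians beside those of all genes and no test. Genes were named by a fixed rule: from each fit, the called genes of largest interaction, at most 12 in each direction, and a mean log2 CPM of at least 1; where the planned fit called fewer than 5, the 10 of smallest p per direction as values; up to 4 members per list by smallest paired interaction p, plus called members; and Txnip, Arrdc4, Acta2, Col1a1, Col3a1, Postn, Fn1, Ctgf, Tgfb1, Cdkn1a and Cdkn2a; not all of these are printed. Other genes were picked after their values were seen: C2, Smpd3, Acat2, Srebf1, Scd2, Msmo1, genes called at a single age, and those shared between ages. List symbols with no match are not analysed here, and some list members are counted but not reported singly. Promoters come from RefSeq (GRCr8); positions of genes come from the deposited table (Rnor_6.0). Figures were drawn with matplotlib 3.10.9.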

Additional observations from a re-analysis of the deposited data

Results flagged for a closer look

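For 16 genes the glucose effects of the 2 ages differed by a test of the difference itself, the interaction in the paired fit (edgeR, adjusted p under 0.05; 0 genes without pairs). A higher effect at 20 months was found for C2 (3.98), Adamts15 (1.39), Ptprv (0.93), Agtr1a (0.70), Dhcr7 (0.65), Mvd (0.57), Cyp51 (0.50), Nsdhl (0.48), Idi1 (0.47), Hmgcs1 (0.46), Acsl3 (0.46), Fasn (0.44), Insig1 (0.44) and Sqle (0.38), all log2 interactions. A lower effect was found for Fchsd1 (-0.62) and Ehbp1l1 (-0.32). Dhcr7 passed in 11 of the 12 alternatives of that fit, with interactions between 0.58 and 0.72, and was missed only without the second pair of 20 months (adjusted p = 0.0539). The interaction of C2 lay between 2.78 and 4.40 in 11 alternatives and rests on counts near 0, and 1 library at 10-13 weeks in normal glucose stood far above the others.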

How the results depend on the processing

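The replicate block decided the number of calls: without it 0 genes passed for the interaction, 0 at 20 months and 1 at 10-13 weeks, and with it 16, 128 and 1067, or 9, 165 and 1149 when only the 12 libraries were fitted. Alternatives of the paired fit were partly chosen after seeing the data. Without pairs, 10-13 weeks gave 33 genes with DESeq2, 0 with limma-voom and 0 to 1 when a library was left out (0 when it was any high glucose library, or the third normal glucose library, of 10-13 weeks). In the paired fit the 16 became 45 with DESeq2 (23 higher, 22 lower) and 9 with 12 libraries, and the 9 synthesis genes became 18 and 5. DESeq2 called 11 of the 16 again and gave the rest no adjusted p, so its counts are over fewer genes than those of edgeR. RLE scaling gave 19 and 10, library totals 24 and 13, no filter on low counts 20 and 11, and limma-voom 20 and 11. Leaving out a pair gave 1 to 25 genes for the interaction, 0 to 19 synthesis genes, 13 to 159 genes at 20 months and 151 to 1092 at 10-13 weeks. All 16 genes kept their direction in every paired alternative that gave them a value, 15 with 12 libraries, where C2 gave none. No called gene changed sign, but the balance of calls did turn: the interaction calls, 14 higher and 2 lower, became 4 higher and 5 lower without pair 2 of 10-13 weeks and 0 higher and 1 lower without pair 2 of 20 months, and the 586 higher and 481 lower calls at 10-13 weeks became 394 higher and 672 lower with library totals. Of 5338 values of single genes and lists under alternatives, 5053 stayed on their side of the threshold or within the spread. That share is no measure of how stable the calls were, because 2729 of the 5053 were genes uncalled without pairs that stayed uncalled. For the 16 genes called in the paired fit, 87 values were not called under its alternatives, among them those that DESeq2 gave no adjusted p. C2 kept its call in 4 of 11 alternatives, the fewest, and Dhcr7 in 11 of 12, the most. Causes were not tested. Low counts limit C2 and Smpd3, and 3 pairs per age limit every call.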
